A study of Mus musculus with 9 samples.

Results

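The respiratory chain genes described here are the genes of mouse liver that encode the subunits of the 5 complexes of oxidative phosphorylation. They were chosen by name from the deposited gene table of 34745 genes. Names starting mt-Nd, mt-Co, mt-Cytb or mt-Atp gave the mitochondrially encoded members. Names starting Ndufa, Ndufb, Ndufc, Ndufs, Ndufv, Uqcr, Cox4i, Cox5, Cox6, Cox7, Cox8 or Atp5, together with Sdha, Sdhb, Sdhc, Sdhd and Cyc1, gave the nuclear ones. Of 110 names that fitted, 7 assembly factors starting Ndufaf and 4 pseudogenes marked -ps were dropped. Of the remaining 99, 94 had at least 10 counts in 3 or more libraries: 13 mitochondrially encoded and 81 nuclear. All 94 entered the tests, among 13701 genes tested in all. The nuclear members comprised 36 genes of complex I, 4 of complex II, 9 of complex III, 13 of complex IV (Ndufa4 included) and 15 of complex V. The other 4 (Atp5s, Atp5sl, Cox7a2l and Ndufa4l2) share a name stem with subunits and are counted apart.

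Liver RNA of C57BL/6 mice was sequenced in 3 groups of 3 libraries. The control group is labelled only as control. In the vehicle group, mice drank water with 400 mg/L TAA for 16 weeks and received vehicle daily for the last 4 weeks, from the start of week 13. The sulodexide group had the same TAA water for 16 weeks and daily sulodexide over the same 4 weeks. TAA is thioacetamide, a compound that hepatocytes convert into toxic metabolites and that is used to produce liver fibrosis, and sulodexide is a mixture of heparin-like and dermatan sulfate glycosaminoglycans. TAA was therefore still being given in both treated groups when the livers were taken. The labels give no sex, age or sulodexide dose, do not say whether control mice received vehicle, and leave unstated whether every library came from its own mouse. The p-values thus reflect the variation among these libraries, part of which may be technical. Libraries held 13803697 to 16655951 counts, and the adjusted p-values are those of edgeR's quasi-likelihood test over all 13701 genes with a threshold of 0.05. Rose, fell, called and not called refer to that test with TMM scaling unless another setting is named.

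The respiratory chain passes electrons from NADH (complex I) and succinate (complex II) through ubiquinone to complex III, cytochrome c and complex IV, where oxygen is reduced, and complexes I, III and IV pump protons that drive ATP synthase, complex V. Complexes I, III, IV and V are assembled from subunits of 2 genomes: mitochondrial DNA is transcribed inside the organelle as long polycistronic RNAs that are cut into single messages, whereas the nuclear genes are transcribed one by one and their proteins are imported. Complex II is encoded by the nucleus alone. Hepatocytes are rich in mitochondria and use them for fatty acid oxidation, urea synthesis and gluconeogenesis as well as for ATP.

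Mouse mitochondrial messages are packed so closely that some overlap, and parts of mitochondrial DNA have near-identical copies on nuclear chromosomes, so the sequences that decide where a read is counted are shown before the values. In the GENCODE M21 transcripts (GRCm38) mt-Atp8 and mt-Atp6, both subunits of the membrane part of ATP synthase, share 43 bases on the plus strand. The stretch chrMT:7907-7989 is printed with the shared bases in capitals.
mt-Atp8 and mt-Atp6: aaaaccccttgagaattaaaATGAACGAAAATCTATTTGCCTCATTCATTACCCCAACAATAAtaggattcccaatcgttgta
The overlaps of mt-Atp6 with mt-Co3 and of mt-Nd4l with mt-Nd4 lie on 1 strand as well, while mt-Nd6, the 1 message of the light strand, overlaps the end of mt-Nd5 from the opposite strand. Whether the counting used strand is not given in the sources used here, so reads in that overlap cannot be assigned with certainty.

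Copies were searched among all GENCODE M21 transcripts, with a minimum of 95% identity over 200 bases. Of the 13 mitochondrially encoded genes, 9 had such a copy. Over the compared bases, the pseudogenes Gm10925 (678 bases, mt-Atp6) and Gm28661 (681 bases, mt-Co2) had 0 differences from the mitochondrial genes. Gm28438 differed from mt-Nd3 by the substitution T3C and Gm29216 differed from mt-Co1 over 483 bases by A1066T, with positions counted from 1 at the 5′ end of the mitochondrial gene. The pairs are shown with the differing base in capitals, each from the plus strand of its transcript.
mt-Nd3: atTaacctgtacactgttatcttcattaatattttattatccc
Gm28438 (chromosome 1): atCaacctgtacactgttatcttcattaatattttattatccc
mt-Co1: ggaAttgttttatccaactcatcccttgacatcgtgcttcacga
Gm29216 (chromosome 1): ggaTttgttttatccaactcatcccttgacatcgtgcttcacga
In the deposited counts, 46.5% of the combined counts of mt-Atp6 and its copy stood on the copy. The share on copies was 12.1% for mt-Nd4l, 11.4% for mt-Co3, 10.9% for mt-Co2 and 9.65% for mt-Nd3. It was 6.95% for mt-Nd4, 3.14% for mt-Co1, 0.0887% for mt-Nd2 and 0.0552% for mt-Nd5. The levels of these genes below are therefore the counts that the authors' counting left on the mitochondrial gene. Adding the copies' counts to their members, an alternative chosen after seeing the data, left the number of mitochondrially encoded genes called lower under TAA at 12.

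Under TAA with vehicle, 12 of the 13 mitochondrially encoded genes fell against control, where 20.4% of all tested genes fell. The median log2 fold change of the 13 was -1.53, which is 0.347 times the control level, against 0.01 for all genes tested. They ranged from -2.35 for mt-Nd3 to -0.94 for mt-Co1. The vehicle libraries lay below every control library in 12 of the 13 genes, where 27.4% of all tested genes had groups apart in that direction. All 12 calls were kept in each of the 18 alternative settings tried. In bulk tissue, fewer cells of a type and less RNA per cell cannot be told apart.

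**Figure D1:**
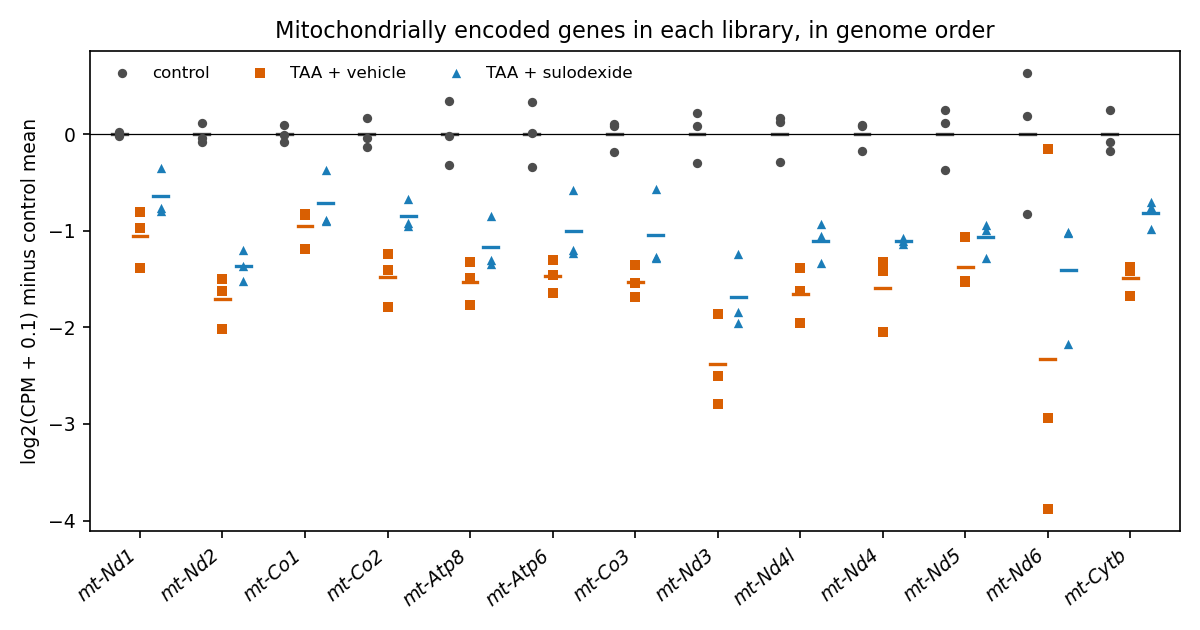
Level of the 13 mitochondrially encoded genes in each library, as log2(CPM + 0.1) minus the control mean of the gene, in the order of the genes along mitochondrial DNA; points are libraries, bars are means of 3 libraries. All treated libraries sit below the control libraries of the same gene except in mt-Nd6, where a vehicle library reaches into the control range.

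Of the complex I subunits in mitochondrial DNA, which form its proton-pumping membrane arm, mt-Nd1 stood at 5758, 5845 and 5662 CPM (counts scaled to library size) in the control libraries and at 2940.0, 2195 and 3283 CPM in the vehicle libraries. Levels of mt-Nd2 were 9689, 9420.2 and 10759 CPM in control and 3229, 2464 and 3526 CPM in vehicle libraries. The ranges of the groups were far apart for both genes, with the second vehicle library lowest in each. The log2 fold changes were -1.04 (SE 0.18, edgeR adjusted p = 0.000922) for mt-Nd1 and -1.70 (SE 0.17, edgeR adjusted p = 3.08e-05) for mt-Nd2. For mt-Nd3, control libraries gave 987, 1284 and 1409 CPM and vehicle libraries 214, 176 and 335 CPM. The highest vehicle library held well under the lowest control library. That change, -2.35 (SE 0.27, edgeR adjusted p = 0.000115), was the largest fall among the 13 genes.

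Both genes of the mt-Nd4l and mt-Nd4 unit, which are read from 1 shared message, moved by similar amounts. mt-Nd4l fell from 3022 ± 491 CPM (SD, n = 3) to 964 ± 188 CPM and mt-Nd4 from 12067 ± 1248 CPM to 4071 ± 1029 CPM. Their log2 fold changes were -1.65 and -1.57, with edgeR adjusted p of 7.33e-05 and 0.000107. mt-Nd5 gave 4991, 3551 and 5464 CPM in control and 2200.2, 1586 and 1605 CPM in vehicle libraries, a log2 fold change of -1.38 (SE 0.20, edgeR adjusted p = 0.000301). The highest vehicle library of mt-Nd5 lay well below the lowest control library.

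mt-Nd6, the single subunit of the light strand, had the fewest counts of the 13 and was the 1 gene not called. Its counts as deposited were 1405, 584 and 1705 in control, 216, 97 and 1384 in vehicle and 747, 756 and 300 in sulodexide libraries. The third vehicle library held more mt-Nd6 than the second control library, so the groups overlapped. The log2 fold change was -1.57 with an SE of 0.94 and an edgeR adjusted p of 0.219. Without vehicle replicate 3 it was -3.46, with an edgeR adjusted p of 0.00468.

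mt-Cytb, cytochrome b of complex III, gave 11642, 12381 and 15561 CPM in control libraries and 5051, 4099 and 4898 CPM in vehicle libraries. All 3 vehicle libraries were below all 3 control libraries, and the third control library was highest. This gave a log2 fold change of -1.49 (SE 0.16, edgeR adjusted p = 5.83e-05).

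Of the catalytic subunits of complex IV, mt-Co1 was the most abundant member of all, per length and in counts, with 25985 ± 627 FPKM (SD, n = 3) in control livers. Its scaled level was 44016, 46429 and 49895 CPM in control and 26275, 20562 and 26156 CPM in vehicle libraries, with no overlap. The log2 fold change of -0.94 (SE 0.18, edgeR adjusted p = 0.00202) was the smallest fall among the 13 genes. mt-Co2 fell by 1.47 on the log2 scale, from 9980.1 ± 1094 to 3611 ± 669 CPM, and mt-Co3 fell by 1.53, from 10636 ± 1166 to 3692 ± 425 CPM (edgeR adjusted p = 8.61e-05 and 0.000218). Vehicle and control libraries did not overlap in either gene.

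The ATP synthase genes mt-Atp8 and mt-Atp6, which encode proteins of its membrane-bound proton path, fell together. mt-Atp8 was at 2462, 3042 and 3897 CPM in control and 1233, 904 and 1097 CPM in vehicle libraries, and mt-Atp6 was at 1104, 1402 and 1751 CPM and 567, 447 and 508 CPM. The log2 fold changes were -1.54 (edgeR adjusted p = 0.000195) and -1.49 (edgeR adjusted p = 0.000322). The control libraries of both genes were spread more widely than the vehicle libraries, yet the groups were apart.

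Together the 13 genes took 10.6%, 9.89% and 10.9% of all counts in the control libraries, 6.52%, 4.79% and 5.97% in the vehicle libraries and 6.24%, 6.39% and 7.85% in the sulodexide libraries. Within that total the genes did not fall by equal amounts. mt-Co1 made up 38.2%, 39.5% and 37.5% of the mitochondrially encoded counts in control and 47.7%, 48.6% and 47.3% in vehicle libraries, so its share was higher in every vehicle library. mt-Nd3 made up 0.856%, 1.09% and 1.06% in control and 0.389%, 0.415% and 0.606% in vehicle libraries, and mt-Nd2 made up 8.40%, 8.01% and 8.09% and 5.86%, 5.83% and 6.38%. The shares of mt-Nd3 and mt-Nd2 were lower in every vehicle library than in any control library. Sulodexide libraries held 42.0%, 40.7% and 46.7% for mt-Co1 and 0.517%, 0.548% and 0.661% for mt-Nd3, which put the mt-Co1 share between the other groups. A share shows unequal change and not that 1 gene stayed constant.

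**Figure D2:**
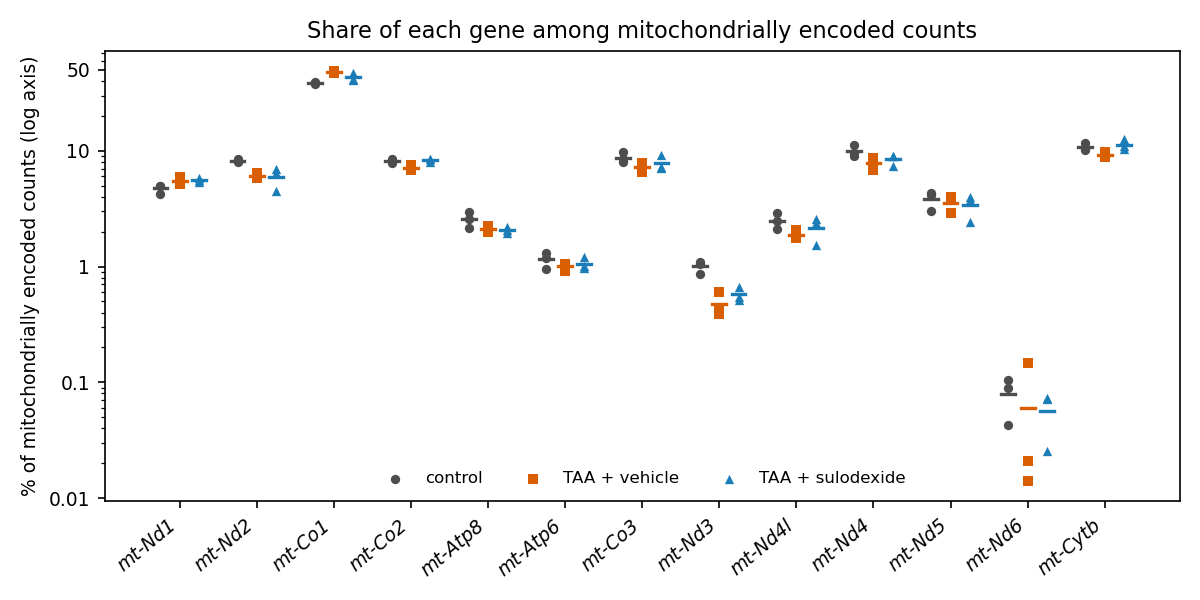
Share of each gene among all mitochondrially encoded counts, in percent on a log axis, for each library, with bars at the mean of 3 libraries. The mt-Co1 share is 37.5% to 39.5% in control and 47.3% to 48.6% in vehicle libraries, and the mt-Nd3 share is at most 0.606% in vehicle and at least 0.856% in control libraries.

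The 81 nuclear genes moved far less. In TAA with vehicle against control, 13 fell and 3 rose, which is 16.0% and 3.70% of them (Cox6b2, counted here, is treated with the tissue forms), where 20.4% of all tested genes fell and 23.1% rose; 65 were not called. The share that fell lies near that of all genes. Vehicle libraries lay above all control libraries in 7 of the 81 and below in 19, where 29.4% and 27.4% of all tested genes lay so, and 43.4% were called in either direction. Their median log2 fold change was -0.12, and the quartiles were -0.37 and 0.13. By complex, 6 of 36 nuclear genes fell in complex I, 2 of 4 in complex II, 1 of 9 in complex III, 2 of 13 in complex IV and 1 of 15 in complex V, besides Atp5sl, whereas 2 rose in complex IV and 1 in complex V. The median nuclear change was -0.03 in complex I, -0.20 in complex II, -0.15 in complex III, -0.07 in complex IV and -0.18 in complex V. The mitochondrially encoded medians were -1.57, -1.49, -1.47 and -1.51 in complexes I, III, IV and V.

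**Figure D3:**
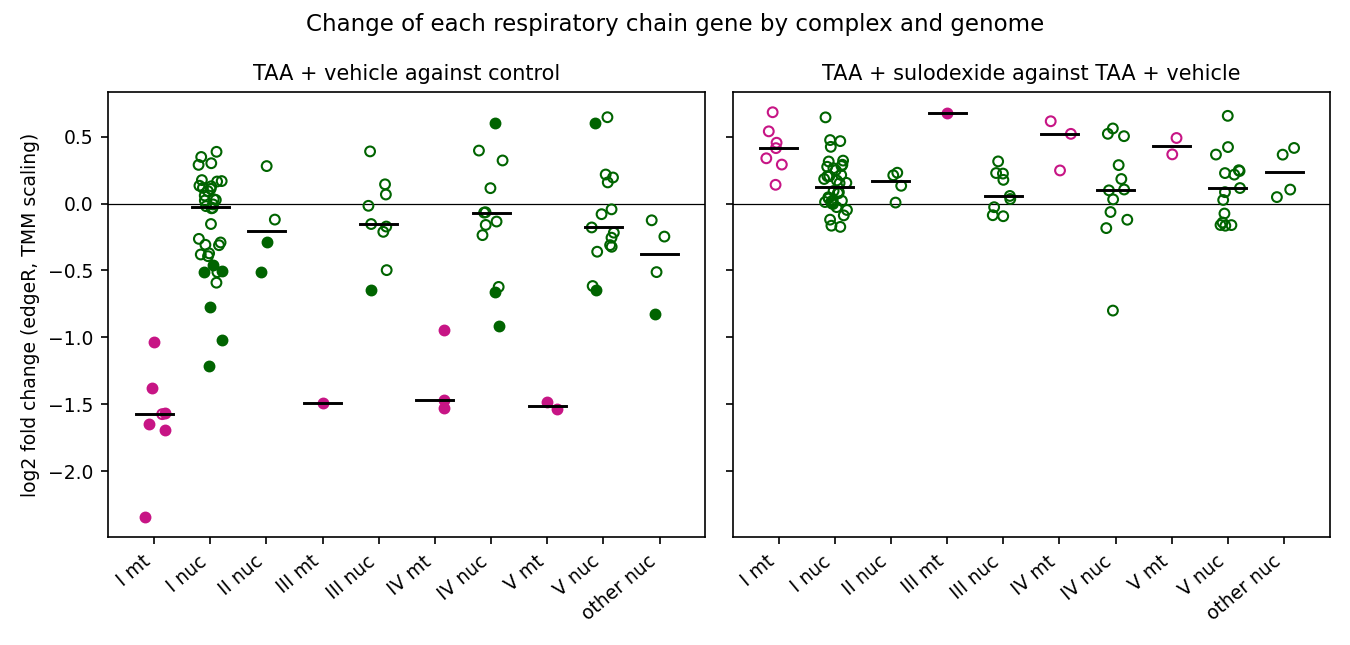
The log2 fold change of each gene by complex (I to V, other) and genome (mt, mitochondrially encoded; nuc, nuclear) in 2 comparisons; filled points passed an adjusted p of 0.05 in edgeR, open points did not, and bars are medians. Cox6b2, at 3.40 in the first comparison, is not drawn. Under TAA the mitochondrially encoded genes lie at -0.94 or lower while the nuclear medians lie between -0.38 and -0.03.

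The split of nuclear calls depends on how libraries are scaled. With library totals alone, the median of all tested genes moved to 0.41 in this comparison, and 31 nuclear members were called higher and 4 lower. Relative to the median of all genes, the nuclear median was -0.13 with the TMM scaling used here and -0.15 with library totals alone. The mitochondrially encoded median was -1.54 and -1.53 on the same relative scale.

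Among the 7 nuclear core subunits of complex I, which carry its flavin and iron-sulfur clusters, 2 fell, where 20.4% of all tested genes fell. Ndufs7, the subunit that holds the last cluster before ubiquinone, gave 52.1, 69.2 and 65.4 CPM in control and 23.1, 27.6 and 29.8 CPM in vehicle libraries. Every vehicle library lay well below every control library. This gave a log2 fold change of -1.21 (SE 0.15, edgeR adjusted p = 0.000131), the largest nuclear fall, and the call was kept in all 18 alternatives. Ndufs1, the largest core subunit, gave 121, 124 and 128 CPM in control and 89.3, 96.2 and 86.3 CPM in vehicle libraries, a log2 fold change of -0.46 (edgeR adjusted p = 0.00932). Its call was lost with library totals alone and with both FPKM fits.

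Of the 29 accessory nuclear genes of complex I, 4 fell and none rose, where 20.4% of all tested genes fell and 23.1% rose. Ndufb3, in the membrane arm, was at 62.2, 75.2 and 80.3 CPM in control, 31.6, 28.7 and 47.1 CPM in vehicle and 51.0, 52.8 and 64.0 CPM in sulodexide libraries. Its vehicle libraries were lowest and did not overlap with either other group. The log2 fold change under TAA was -1.02 (SE 0.19, edgeR adjusted p = 0.00145). The other 3 were Ndufb2 (-0.77, edgeR adjusted p = 0.0169), Ndufab1, the mitochondrial acyl carrier protein (-0.51, 0.0354), and Ndufb9 (-0.50, 0.0377). The call of Ndufb2 was lost without control replicate 2 (edgeR adjusted p = 0.0626) and without vehicle replicate 1 (0.0616). The calls of Ndufab1 and Ndufb9 were lost in 8 and 9 of the 18 alternatives. Of all 3 genes the call was lost with library totals alone and both FPKM fits, and of Ndufab1 and Ndufb9 with upper-quartile factors (edgeR adjusted p = 0.0835 and 0.0942). For Ndufab1 the others were the omission of control replicate 2 or 3 or of vehicle replicate 1 or 3 (edgeR adjusted p from 0.0813 to 0.124). For Ndufb9 the others were the omission of any control replicate or of vehicle replicate 1 or 2 (0.0513 to 0.131).

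Complex II, succinate dehydrogenase, links the chain to the citric acid cycle. Sdha, its flavoprotein, gave 611, 578 and 621 CPM in control and 364, 464 and 439.8 CPM in vehicle libraries, without overlap, a log2 fold change of -0.51 (SE 0.13, edgeR adjusted p = 0.00923), a call lost with library totals alone (0.457) and both FPKM fits. Sdhd, a membrane anchor, gave 219, 241 and 231 CPM and 176, 199.9 and 191 CPM, a log2 fold change of -0.29 with an edgeR adjusted p of 0.0497. The Sdhd call was lost in 13 of 18 alternatives, among them the omission of any single control or vehicle library (edgeR adjusted p from 0.0564 to 0.160), and its sign turned with library totals alone (0.11). Sdhb, the iron-sulfur subunit, stood at -0.12 and Sdhc, the other anchor, at 0.28 (edgeR adjusted p = 0.588 and 0.141), and Sdhc was called higher with library totals alone (0.67, edgeR adjusted p = 0.00137) and in both FPKM fits. The 4 genes of this wholly nuclear complex thus did not share a direction.

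In complex III, Uqcrh, the acidic hinge protein at cytochrome c1, was the 1 nuclear gene called. It gave 145, 186 and 187 CPM in control and 101, 90.7 and 139 CPM in vehicle libraries, so that the highest vehicle library stayed just below the lowest control library. This gave a log2 fold change of -0.65 (SE 0.18, edgeR adjusted p = 0.012), and the call was lost with library totals alone and both FPKM fits. Cyc1, cytochrome c1, and Uqcrfs1, the Rieske iron-sulfur protein, are the redox partners of mt-Cytb in the same complex. Their log2 fold changes were 0.14 and -0.17 (edgeR adjusted p = 0.449 and 0.236), against -1.49 for mt-Cytb, and Cyc1 was called higher with library totals alone (0.54, edgeR adjusted p = 0.00522) and in both FPKM fits.

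In complex IV, Cox6c and Cox7b, accessory subunits bound around the catalytic core, fell and Cox6a1 rose. Cox6c gave 130.1, 165 and 149.9 CPM in control, 69.8, 67.5 and 97.9 CPM in vehicle and 88.7, 107 and 142 CPM in sulodexide libraries. Vehicle libraries lay below all control libraries, and the sulodexide libraries overlapped both groups. Under TAA the log2 fold change was -0.92 (SE 0.19, edgeR adjusted p = 0.00322). Cox7b changed by -0.66 (SE 0.16, edgeR adjusted p = 0.00581), from 149 ± 21.1 to 94.7 ± 9.02 CPM, a call lost with library totals alone and both FPKM fits. Cox6a1, the form of subunit 6a found in liver, was at 257, 314 and 271 CPM in control and 416, 413 and 451 CPM in vehicle libraries, a log2 fold change of 0.60 (SE 0.15, edgeR adjusted p = 0.0072). All vehicle libraries lay above all control libraries, and the call was kept in all 18 alternatives.

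In complex V, Atp5j, coupling factor 6 of the peripheral stalk, fell from 128 ± 7.78 CPM to 81.7 ± 7.48 CPM (log2 fold change -0.65, SE 0.16, edgeR adjusted p = 0.00806), and the call was lost with library totals alone and both FPKM fits. Atp5o, the stalk protein OSCP, gave 158, 188 and 161 CPM in control and 226, 240.2 and 303 CPM in vehicle libraries. It was higher in all 3 vehicle libraries, with a log2 fold change of 0.60 (SE 0.13, edgeR adjusted p = 0.00422). In GENCODE M21 the Atp5o locus overlaps other genes, among them another entry named Atp5o on the same strand. The loci of Ndufs1, Ndufab1, Ndufb2, Ndufb9, Sdha, Uqcrh, Cox6c and Atp5j overlap other annotated genes as well. Reads in the shared stretches are therefore uncertain. The 5 genes of the catalytic F1 head (Atp5a1, Atp5b, Atp5c1, Atp5d and Atp5e) lay between -0.22 and 0.22 and were not called by edgeR with TMM scaling. Atp5b was called higher by DESeq2 (0.23, adjusted p = 0.0416) and with upper-quartile factors (0.31, edgeR adjusted p = 0.0486), and Atp5a1, Atp5b and Atp5d were called higher with library totals alone and in both FPKM fits. Outside the subunits, Atp5sl, also known as Dmac2 and assigned in human cells to the assembly of the complex I membrane arm, fell from 43.6 ± 3.78 CPM to 24.6 ± 2.96 CPM (-0.83, edgeR adjusted p = 0.00155).

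**Figure D4:**
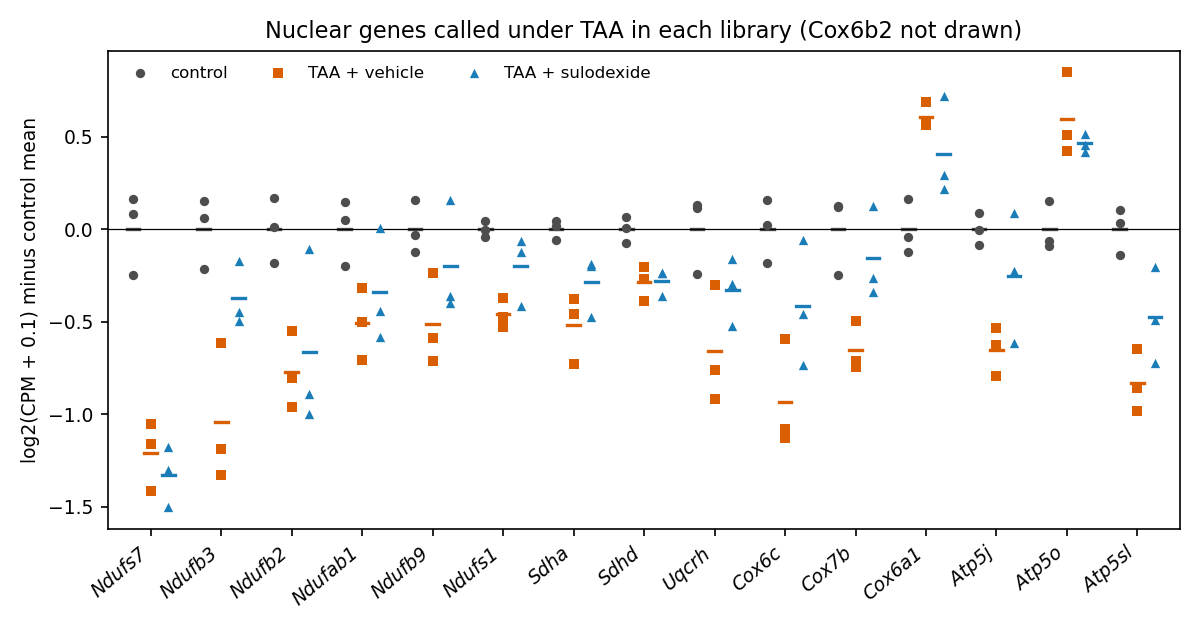
The nuclear genes called under TAA, ordered by complex, in each library as log2(CPM + 0.1) minus the control mean; points are libraries and bars are means of 3 libraries. Cox6b2, also called, is not drawn. In Ndufs7 both treated groups lie below control, whereas in Ndufb3, Cox6c and Cox7b the sulodexide means lie between the other groups.

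Several subunits exist as tissue forms, and their levels checked the tissue. Per length, Cox6a1 stood at 202 ± 17.6 FPKM (SD, n = 3) in control liver, while the heart and muscle form Cox6a2 stayed at no more than 5 counts in any library and below the count minimum. The muscle and heart form Cox7a1 stood at 2.63 ± 0.278 FPKM against 104 ± 5.21 FPKM for Cox7a2, and Cox4i1 stood at 112 ± 6.44 FPKM while Cox4i2, the form of lung and low oxygen, had 0 to 5 counts. Cox8b, Cox8c and Cox7b2 also fell below the minimum, with 0 counts of Cox8c and Cox7b2 in every library. The testis form Cox6b2 had the fewest counts of the members that passed. Its counts were 3, 0 and 1 in control, 20, 16 and 26 in vehicle and 5, 14 and 18 in sulodexide libraries. Its log2 fold change under TAA was 3.40 (SE 0.76). Since it passed the count minimum through the treated libraries alone, a difference from control was built into its inclusion, and it is 1 of the 3 nuclear genes counted as risen. Cox6b1, the general form, was at 221 ± 25.7 CPM in control and 201 ± 52.4 CPM in vehicle libraries (log2 fold change -0.13, edgeR adjusted p = 0.62).

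The 3 genes for the c-ring of ATP synthase encode the same mature protein, and 0 of 3 were called by edgeR with TMM scaling. Atp5g1 and Atp5g2 were called higher with library totals alone and in both FPKM fits, and Atp5g2 also without control replicate 2 (1.17, edgeR adjusted p = 0.0442). Atp5g3 was called lower without vehicle replicate 3 (-0.55, edgeR adjusted p = 0.0112) and with a replicate block (-0.38, edgeR adjusted p = 0.0301). Per length, control levels were 90.0 ± 1.16 FPKM for Atp5g3, 3.94 ± 0.379 FPKM for Atp5g1 and 0.539 ± 0.278 FPKM for Atp5g2. Scaled levels of Atp5g3 were 307 ± 21.8 CPM in control and 239.6 ± 51.6 CPM in vehicle libraries, Atp5g1 stood at 45.0 ± 5.13 and 51.5 ± 3.11 CPM, and Atp5g2 at 1.33 ± 0.711 and 2.08 ± 0.593 CPM. Cox8a (0.32), Cox4i1 (0.12), Cox7a2 (-0.07), Ndufa4 (-0.24) and the supercomplex factor Cox7a2l (-0.25) were not called either (edgeR adjusted p from 0.0554 to 0.74). Cox8a was called higher by DESeq2 (0.33, adjusted p = 0.0296). It also rose with DESeq2's size factors, upper-quartile factors and only the 2 groups compared (edgeR adjusted p from 0.0263 to 0.0488). Cox8a and Cox4i1 were called higher with library totals alone and in both FPKM fits. Ndufa4l2, a relative of Ndufa4 induced by low oxygen, stood at 2.24 ± 0.465 CPM in control, 2.06 ± 0.472 CPM in vehicle and 2.76 ± 0.539 CPM in sulodexide libraries (edgeR adjusted p = 0.762 under TAA).

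The balance between the genomes was also read within each library, where it does not depend on scaling between libraries. In complex I, the mean FPKM of the 7 mitochondrially encoded genes was 5474, 4436 and 5135 in control and 2463, 1739 and 2495 in vehicle libraries, and that of the 36 nuclear genes was 42.5, 49.3 and 46.2 and 50.7, 49.5 and 61.0. The log2 ratio of these means was 7.01, 6.49 and 6.80 in control, 5.60, 5.13 and 5.36 in vehicle and 5.80, 5.83 and 5.30 in sulodexide libraries. All control ratios lay above all ratios of both treated groups. In complex III the log2 ratios were 6.74, 6.52 and 6.90 in control, 5.53, 5.16 and 5.22 in vehicle and 5.88, 6.13 and 5.78 in sulodexide libraries. Here the 3 groups were ordered without overlap, vehicle lowest and control highest. In complex IV the log2 ratios were 7.21, 7.06 and 7.29, 6.14, 5.75 and 5.81 and 6.29, 6.18 and 6.31 for the same groups. In complex V they were 6.89, 7.03 and 7.42, 6.01, 5.45 and 5.51 and 5.88, 5.85 and 6.14. In complex IV the sulodexide ratios of mean FPKM also lay above all vehicle ratios, but the log2 ratios of summed counts overlapped, with the highest vehicle library at 4.26 and the lowest sulodexide library at 4.21. In complexes I and V the treated groups overlapped. The mean log2 ratio in vehicle minus that in control was -1.40 in complex I, -1.42 in complex III, -1.29 in complex IV and -1.46 in complex V. The pooled SD within groups was 0.27, 0.19, 0.15 and 0.25 in the same order, so each difference was larger than the spread between libraries. No p is given for these ratios over the members.

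**Figure D5:**
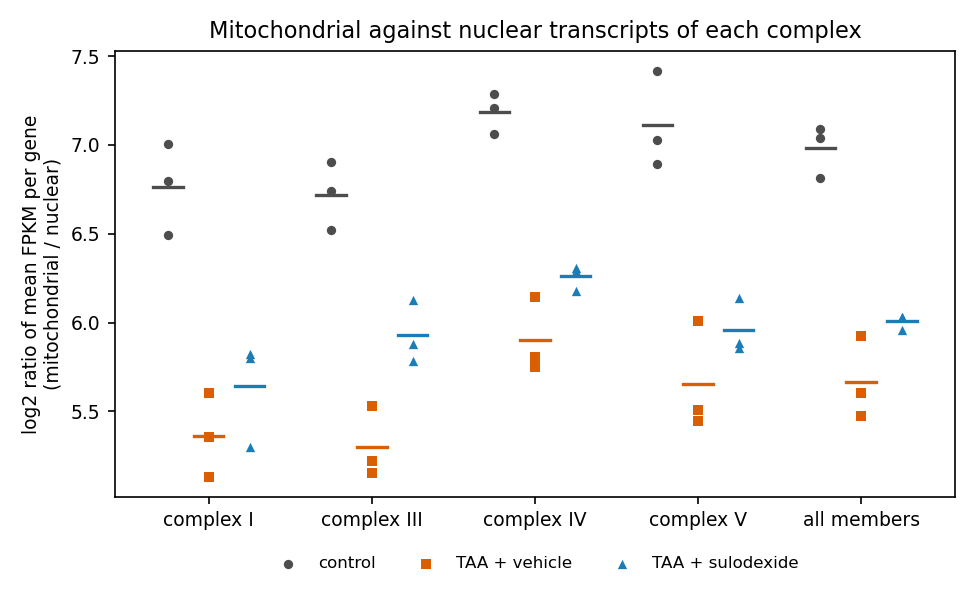
Log2 ratio of the mean FPKM per gene of mitochondrially encoded to nuclear members of each complex, in each library; bars are means of 3 libraries. Control libraries lie between 6.49 and 7.42, vehicle libraries between 5.13 and 6.14 and sulodexide libraries between 5.30 and 6.31.

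The comparison of sulodexide with vehicle, both under continued TAA, asks what the drug changed while the injury went on. Here 1 of 13 mitochondrially encoded genes rose and none fell, where 4.8% of all tested genes were called, 1.39% higher and 3.41% lower. All 13 log2 fold changes were positive, with a median of 0.46 and a range from 0.14 for mt-Nd6 to 0.68 for mt-Nd3, against a median of 0.02 for all genes. The gene called was mt-Cytb, at 5051, 4099 and 4898 CPM in vehicle and 6641, 7743 and 8070.3 CPM in sulodexide libraries. Every sulodexide library lay above every vehicle library and below every control library. The log2 fold change was 0.68 (SE 0.16, edgeR adjusted p = 0.0385). That call was lost in 8 of 18 alternatives: without vehicle replicate 1, 2 or 3 or sulodexide replicate 2 or 3 (edgeR adjusted p from 0.0907 to 0.112), with upper-quartile factors (0.0546), in a fit of the 2 groups alone (0.0556) and with log2(FPKM + 1) in limma (0.0510).

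Sulodexide and vehicle libraries did not overlap in 7 of the 13 genes, all higher under sulodexide (mt-Nd1, mt-Nd4, mt-Nd4l, mt-Cytb, mt-Co2, mt-Co3 and mt-Atp6), as was the case for 11.1% of all genes. mt-Co2 gave 3756, 2882 and 4196 CPM in vehicle and 5126, 5253 and 6224 CPM in sulodexide libraries, a log2 fold change of 0.62 (SE 0.17) with an edgeR adjusted p of 0.0637 and a DESeq2 adjusted p of 0.00806. mt-Nd4 gave 4497, 2897 and 4819 CPM and 5477, 5577 and 5692 CPM (0.46, edgeR adjusted p = 0.199). The 3 sulodexide values of mt-Nd4 were close together and above the highest vehicle value. mt-Co1 gave 25319, 25107 and 36259 CPM in sulodexide libraries, of which 2 lay within the vehicle range, and a log2 fold change of 0.25 (SE 0.18, edgeR adjusted p = 0.49).

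No nuclear member was called between sulodexide and vehicle by edgeR, although 6 had an unadjusted p under 0.05, all higher, where 2786 of all 13701 genes had one, and DESeq2 called 1, Ndufb3 (adjusted p = 0.0331). The median of the 81 was 0.11 and 61 had a positive log2 fold change, as did 7110 of all 13701 genes. Sulodexide libraries lay above all vehicle libraries in 5 of the 81, where 11.1% of all tested genes lay so. Without vehicle replicate 3, edgeR called Ndufb3 (0.89, adjusted p = 0.0397) and Atp5k, a small subunit of ATP synthase (1.25, adjusted p = 0.0303). The same omission called Atp5k lower under TAA against control (-1.21, edgeR adjusted p = 0.00192), where vehicle replicate 3, at 68.8 CPM, stood above the other 2 at 26.2 and 28.0 CPM. The genes with the smallest p were Ndufb3 (0.65, SE 0.19, edgeR adjusted p = 0.0785) and Cox7b (0.50, SE 0.16, edgeR adjusted p = 0.0942). Both had sulodexide libraries above all vehicle libraries. Ndufs7 was at 21.7, 25.0 and 27.3 CPM in sulodexide libraries, within and below the vehicle range, with a log2 fold change of -0.12 (SE 0.15, edgeR adjusted p = 0.71). The third sulodexide library stood apart among nuclear members, with a median of 0.33 above the control mean on the log2 scale, against -0.17 and -0.12 in the other 2.

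Against control, sulodexide-treated TAA livers still held less of the mitochondrially encoded RNA. Of the 13 genes 12 fell, with mt-Nd6 again not called, and all 13 were lower in every sulodexide library than in any control library, where 11.4% of all tested genes fell and 20.6% had groups apart in that direction. The median log2 fold change was -1.09. This comparison uses the same control libraries as the first and the same sulodexide libraries as the second, so the 3 are not independent. mt-Nd3 stood at 312, 338 and 513 CPM in sulodexide libraries (-1.66, SE 0.27, edgeR adjusted p = 0.00199 against control). mt-Nd2 stood at 3857, 4337 and 3467 CPM (-1.36, SE 0.16, edgeR adjusted p = 0.00029). Among the 12 genes called, these were the farthest below control, as they were in the vehicle group. The smallest difference was that of mt-Nd1 (-0.62, edgeR adjusted p = 0.0274), whose call was lost in 9 of 18 alternatives, among them the omission of any control replicate or of sulodexide replicate 1 or 2 (edgeR adjusted p from 0.0605 to 0.0922). The mt-Co1 call (-0.70, edgeR adjusted p = 0.0199) was lost in 7, among them the omission of control replicate 2 or 3 or of sulodexide replicate 1 or 2 (0.0558 to 0.0760).

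Of the nuclear members, Ndufs7 fell in sulodexide livers against control (-1.33, SE 0.15, edgeR adjusted p = 0.000212), and Atp5o (0.46, 0.0302) rose. Among all tested genes 11.4% fell and 11.2% rose. Cox6b2 also passed the threshold, at 2.76, but its inclusion rested on treated libraries. Groups lay apart upward in 7 nuclear members and downward in 7, where 21.4% and 20.6% of all tested genes lay so. The other 78 were not called and the median was 0.03. Without sulodexide replicate 3, 5 nuclear members were called lower. The Atp5o call was lost without control replicate 1 or 3 or any sulodexide replicate (edgeR adjusted p from 0.0580 to 0.0996). With library totals alone the median of all genes in this comparison was 0.27, and 18 nuclear members were called higher and 1 lower.

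The machinery that copies and reads mitochondrial DNA was examined as 2 lists. Among 24 genes of mitochondrial transcription and RNA processing, 10 fell and 1 rose under TAA with vehicle. The shares of all tested genes that fell and rose were 20.4% and 23.1%. The list's median was -0.32 against 0.01 for all genes. Lrpprc, which stabilises mitochondrial messages, gave 124, 122 and 142 CPM in control, 52.5, 67.0 and 53.6 CPM in vehicle and 86.3, 75.1 and 66.0 CPM in sulodexide libraries. Control libraries were highest, and the lowest sulodexide library lay just inside the vehicle range. Under TAA the log2 fold change was -1.16 (SE 0.14, edgeR adjusted p = 0.000112). Fastkd1, an RNA-binding protein of the organelle, changed by -1.03, Hsd17b10, a subunit of mitochondrial RNase P, by -0.74, and Mterf2, of the transcription termination factor family, by -1.63 (edgeR adjusted p = 7.33e-05, 0.00136 and 0.00426). Polrmt, the mitochondrial RNA polymerase, rose from 24.8 ± 3.35 CPM to 36.5 ± 2.61 CPM (log2 fold change 0.56, edgeR adjusted p = 0.00978). The same list gave 5 genes higher and 3 lower with library totals alone.

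Between sulodexide and vehicle, 2 of these 24 genes rose: Fastkd1 (0.55, SE 0.12, edgeR adjusted p = 0.0247) and Mterf2 (1.43, SE 0.36, edgeR adjusted p = 0.0471). Mterf2 was a gene of low level, at 0.914, 0.491 and 0.697 CPM in vehicle and 1.95, 1.51 and 2.30 CPM in sulodexide libraries. In that comparison 1.39% of all tested genes rose, and 0 of the 24 were called with library totals alone. The Fastkd1 call was also lost without vehicle replicate 1 or 3 or sulodexide replicate 1 or 2, and the Mterf2 call without any single vehicle or sulodexide library. Of 13 genes that maintain mitochondrial DNA, 3 fell under TAA and none rose, a share near the 20.4% of all tested genes that fell: the DNA polymerase Polg (-0.48), the single-strand binding protein Ssbp1 (-0.53) and Tfam (-0.44), which packages the DNA and starts its transcription (edgeR adjusted p = 0.00833, 0.0107 and 0.0226). With library totals alone 2 of the 13 were called higher and 0 lower. Tfam gave 39.2, 41.0 and 38.0 CPM in control, 31.6, 29.1 and 26.5 CPM in vehicle and 41.4, 31.6 and 42.0 CPM in sulodexide libraries. All vehicle libraries of Tfam lay below control, and the second sulodexide library lay within the vehicle range.

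Of 12 tested regulators of mitochondrial biogenesis, 3 fell under TAA and none rose, again a share near the 20.4% of all tested genes. Esrrg, an orphan nuclear receptor of oxidative genes, fell from 3.71 ± 1.68 CPM to 0.207 ± 0.126 CPM (-4.09, SE 0.58) and stood at 0.186 ± 0.112 CPM under sulodexide. Esrrg passed the filter on low counts through the control libraries alone. A difference from control was therefore built into its inclusion, and it is 1 of the 3 regulators counted as fallen. The deacetylase Sirt1 changed by -0.88 and Gabpa, a subunit of the factor GABP, by -0.74 (edgeR adjusted p = 0.00369 and 0.00424). Gabpa and Atp5j overlap in the annotation. Library totals alone gave 3 regulators higher and 1 lower.

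Enzymes that feed electrons into the chain were taken as a list. Of 11 electron carriers and dehydrogenases that deliver electrons to ubiquinone, 7 fell and 2 rose under TAA, with a list median of -0.74. Among all tested genes 20.4% fell and 23.1% rose. With library totals alone 5 of the 11 were lower and 2 higher. Proline dehydrogenase Prodh gave 221, 248 and 288 CPM in control, 61.6, 46.6 and 70.2 CPM in vehicle and 88.2, 63.6 and 116 CPM in sulodexide libraries. The groups treated with TAA lay below every control library. Its log2 fold change under TAA was -2.09 (SE 0.22, edgeR adjusted p = 5.86e-05). Dmgdh (-0.85) and Sardh (-0.74), which oxidise dimethylglycine and sarcosine, and Etfa (-0.75), of the electron transfer flavoprotein, fell as well (edgeR adjusted p = 0.000148, 0.000946 and 0.000632). Dhodh (0.59), of pyrimidine synthesis, and Gpd2 (0.51), of the glycerol phosphate shuttle, rose (edgeR adjusted p = 0.0205 and 0.0317). Between sulodexide and vehicle, 1.39% of all tested genes rose. Dmgdh alone of the 11 was called there, by 0.51 (SE 0.11, edgeR adjusted p = 0.0231). That call was lost with library totals alone, in the fit of the 2 groups alone, in both FPKM fits, and without vehicle replicate 1 or 3 or sulodexide replicate 1 or 2.

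In the citric acid cycle 5 of 14 genes fell and 2 rose under TAA, where 20.4% of all tested genes fell and 23.1% rose. Fumarase Fh1 (-0.89), Sucla2 (-0.63), Dld (-0.48) and Idh3a (-0.41) were among those that fell, and citrate synthase Cs (0.67) and malate dehydrogenase Mdh2 (0.43) rose (edgeR adjusted p from 0.000716 to 0.0259). Library totals alone gave 1 lower and 2 higher. Ubiquinone synthesis gave 4 of 11 genes that fell (Coq10b, -1.16; Coq3, -0.71; Coq10a, -0.73; Coq9, -0.32) and none that rose (edgeR adjusted p from 0.00149 to 0.0327), and with library totals alone 1 lower and 2 higher. Between sulodexide and vehicle, edgeR called 0 genes of these 2 lists, whereas DESeq2 called 1 of the 14 citric acid cycle genes higher.

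Assembly factors, which insert cofactors and join subunits, were called lower in 5 of 15 genes for complex I, 0 of 4 for complex II, 3 of 6 for complex III, 5 of 22 for complex IV and 1 of 4 for complex V under TAA. For comparison, 20.4% of all tested genes fell and 23.1% rose. A single assembly factor rose, Nubpl (0.44, edgeR adjusted p = 0.039), which delivers iron-sulfur clusters to complex I. Those that fell included Ndufaf1 (-0.64), Ttc19 (-0.78), Coa7 (-0.71) and Tmem70 (-0.67), acting on complexes I, III, IV and V (edgeR adjusted p from 0.00107 to 0.0023). With library totals alone, none of these 51 factors was called lower and 3, 0, 1, 6 and 2 were called higher for complexes I to V.

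Mitochondrial ribosomal proteins, which translate the 13 messages, gave 9 genes that rose and 9 that fell among 77 under TAA. These shares lie below those of all tested genes, of which 23.1% rose and 20.4% fell. The list's median was -0.06, and with library totals alone 37 were higher and 1 lower. Mrpl49 (-0.75) and Mrps18b (0.55) had the smallest p in each direction (edgeR adjusted p = 0.000689 and 0.00331). Among 23 genes of import, carriers and folding, 3 rose and 6 fell, and with library totals alone 11 were higher and 0 lower. Slc25a4, the muscle-type ADP/ATP carrier, rose by 1.59 under TAA (edgeR adjusted p = 0.000174) and fell by 0.90 on the log2 scale under sulodexide against vehicle (edgeR adjusted p = 0.0285), the latter call being lost without vehicle replicate 1 or 3 or sulodexide replicate 1 or 2. Opa1, which shapes the inner membrane, changed by -0.69 under TAA (edgeR adjusted p = 0.00085).

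Both tested genes of uncoupling and ATP synthase control rose under TAA, where 23.1% of all tested genes rose. Atpif1, the inhibitor of ATP synthase that blocks its reverse reaction, gave 8.65, 12.2 and 10.9 CPM in control, 52.1, 44.7 and 50.3 CPM in vehicle and 37.2, 33.3 and 51.7 CPM in sulodexide libraries. Both treated groups lay far above control, and the third sulodexide library lay within the vehicle range while the other 2 lay below it. The log2 fold change was 2.22 (SE 0.19, edgeR adjusted p = 1.21e-05) under TAA with vehicle and -0.27 (edgeR adjusted p = 0.43) for sulodexide against vehicle. Ucp2, an inner-membrane carrier found in macrophages among other cells, rose from 23.0 ± 2.32 CPM to 75.9 ± 33.6 CPM (1.73, edgeR adjusted p = 0.000523). Ucp1 was at 0 counts in every library.

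Promoter motifs of the nuclear members were examined, a feature that the choice by name did not use. RefSeq promoter windows on GRCm38.p6, from 250 bases before to 50 after the start, were found for 65 of the 81 genes. Both strands were searched for 3 motifs: GCGCA and GCGC with 1 base of any kind between them for NRF1, CCGGAAG of GABP and ATGGCGG of YY1, factors known to drive nuclear respiratory genes. NRF1 matched in 17 of the 65 genes (26.2%) against 5.19% of 27025 genes with a window, GABP in 16 (24.6%) against 9.93% and YY1 in 10 (15.4%) against 4.69%. These windows are printed for Cox6a1 and Ndufs7, 1 subunit that rose and 1 that fell in every alternative, with matches in capitals.
Cox6a1 (chr5:115348909-115349208, minus strand): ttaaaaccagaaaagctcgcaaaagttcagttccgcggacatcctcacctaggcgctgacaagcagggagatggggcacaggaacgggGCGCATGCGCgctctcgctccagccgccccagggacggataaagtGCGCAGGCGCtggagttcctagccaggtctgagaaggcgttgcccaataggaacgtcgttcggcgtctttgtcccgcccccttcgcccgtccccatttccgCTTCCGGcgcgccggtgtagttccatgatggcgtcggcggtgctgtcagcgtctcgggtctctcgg
Ndufs7 (chr10:80249199-80249498, plus strand): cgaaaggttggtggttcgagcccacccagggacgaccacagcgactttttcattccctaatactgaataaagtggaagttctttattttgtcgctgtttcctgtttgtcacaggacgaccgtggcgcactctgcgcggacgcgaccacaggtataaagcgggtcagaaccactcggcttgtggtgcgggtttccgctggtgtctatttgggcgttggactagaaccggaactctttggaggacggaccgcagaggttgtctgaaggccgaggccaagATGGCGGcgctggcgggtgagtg
The Cox6a1 window holds NRF1 matches from bases 89 and 134 and a GABP match from base 235, and the Ndufs7 window holds a YY1 match from base 278, counted from the 5′ end. The NRF1 motif reads almost the same on both strands, and the match at base 89 was found on both. Of the 9 genes with a window that fell under TAA, 2 had an NRF1 match, against 13 of 53 that were not called and 2 of 3 that rose. A GABP match was found in 3 of 9, 12 of 53 and 1 of 3, and a YY1 match in 2 of 9, 8 of 53 and 0 of 3. The 3 that rose include Cox6b2, whose window held none of the motifs and whose inclusion rested on treated libraries. A match is a run of letters and not a measured binding site.

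Near-identical copies also touch nuclear members. For Atp5l, Atp5h, Cox7c, Cox5b and Ndufs5, between 33.6% and 55.6% of the combined counts stood on the copies, so their levels are uncertain. With edgeR and TMM scaling 0 of the 5 were called under TAA. However, Cox7c was called lower under TAA with the copies' counts added (-0.78, edgeR adjusted p = 0.0308). It was also called lower with a replicate block (-0.61, edgeR adjusted p = 0.0366). Cox5b was called higher under TAA with library totals alone (0.79, edgeR adjusted p = 0.00597) and in both FPKM fits. With copies added, 3 nuclear members were called higher and 14 lower. Length did not order the changes: over the 81 nuclear genes, Spearman's rho of log2 fold change with transcript length was 0.03 under TAA, as a description across genes.

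Markers of liver cell types moved in the same libraries. Of all tested genes, 20.4% fell and 23.1% rose under TAA with vehicle. Under sulodexide against vehicle 3.41% fell and 1.39% rose. The 9 hepatocyte markers had a summed level of 102031 to 125431 CPM in control and 84888 to 102610 CPM in vehicle libraries. In sulodexide libraries it was 91645 to 114119 CPM, so the tissue reads as liver in every group. Under TAA 5 of 9 fell and 0 rose, with a median log2 fold change of -0.92, and with library totals alone 5 fell and 2 rose. Under sulodexide against vehicle 1 of 9 rose and 0 fell, with a median of 0.28. All 7 cholangiocyte markers rose under TAA (33.7 to 48.8 CPM in control, 210.2 to 508 CPM in vehicle) and all 7 fell under sulodexide against vehicle (43.0 to 109 CPM). All 7 markers of stellate cells and myofibroblasts rose under TAA (160.3 to 193 CPM, then 393 to 618 CPM) and 3 fell under sulodexide (235 to 262 CPM). Macrophage markers rose in 5 of 6 (109 to 135 CPM, then 172 to 293 CPM, and 169.5 to 377 CPM under sulodexide). Lymphocyte, neutrophil and proliferation markers rose in 3 of 5, 4 of 4 and 4 of 4. Their summed control levels were only 1.16 to 4.22, 2.11 to 3.01 and 4.13 to 4.98 CPM. Some of these genes may thus have passed the filter on low counts through the treated libraries alone. For such genes a rise would be built into their inclusion, and which genes these were was not tested. Endothelial and red blood cell markers fell in 1 of 6 and 1 of 5, but with library totals alone 2 endothelial markers were higher and 0 lower, and 0 red blood cell markers were called. No striated muscle marker was tested, with Myh1 and Myh6 at 0, and of the brown fat list 1 gene was tested and not called. The part of these cell types in the respiratory chain results was not tested.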

How the data were processed

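RNA of 9 mouse liver samples in 3 groups was sequenced after mRNA had been separated from total RNA, per the labels' protocols. HISAT2 2.0.4, StringTie 1.3.0 and the mouse builds mm10 and GRCm38.p4 are named in the submitters' processing notes. The counter, like its strand setting, is not given in the sources used here. Values were deposited as a single table of whole-number counts and FPKM per gene, per the file headers. The counts of the authors were used as deposited, and their FPKM values, which are per length and per library, were used for levels between genes. Within a gene, counts and FPKM implied the same length in all libraries to within 0.0835%.

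Differences were tested in R 4.3.3 with edgeR 4.0.16 (TMM factors, filterByExpr, robust quasi-likelihood F-test, all 9 libraries, no replicate block), with Benjamini-Hochberg adjustment over 13701 genes and a threshold of 0.05. CPM values are counts divided by the TMM-scaled library size. Alternatives comprised other scaling factors, filters, 2 groups only, a replicate block, each library left out, DESeq2 1.42.0 and limma 3.58.1 on log2(FPKM + 1) and log2(FPKM + 0.1), where a fold change understates low genes. Adding copies' counts was chosen after seeing the data. The tests were checked on simulated data. Copies were found with BLAST+ 2.17.0 in GENCODE M21, in which all 94 members were found, 68 with the same coordinates.

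The members and all gene lists were chosen with earlier results of these data known. Named were all mitochondrially encoded genes, up to 4 nuclear genes per complex and direction by adjusted p, a fixed set of tissue isoforms with the complex II genes, Cyc1 and Uqcrfs1, and up to 4 genes per list and direction. Ndufab1, Ndufb9, Atp5k, the F1 head subunits and the members with copies were named after their values were seen. The single values of 1 member are not reported here.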

Additional observations from a re-analysis of the deposited data

How the results depend on the processing

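The median change of mitochondrially encoded minus nuclear genes kept its sign in all 18 alternatives of each comparison, from -1.55 to -1.27 for TAA with vehicle against control, 0.16 to 0.48 for sulodexide against vehicle and -1.25 to -0.98 for sulodexide against control. Leaving out 1 library at a time gave 12 to 13, 0 to 1 (higher) and 10 to 12 called mitochondrially encoded genes in these comparisons. For sulodexide against vehicle, the number called higher was 0 with upper-quartile factors, with only the 2 groups compared and with log2(FPKM + 1), and 2 with no filter and with DESeq2. Nuclear genes called lower under TAA numbered 4 with library totals alone and with both FPKM fits, and 9 to 16 without 1 library. Nuclear genes called higher there numbered 31 with library totals alone, 33 with each FPKM fit, 6 with upper-quartile factors, and 5 with only the 2 groups compared and with DESeq2, and 3 to 4 without 1 library. Between sulodexide and vehicle, 1 nuclear gene was higher with DESeq2, and 0 to 2 without 1 library. Against control under sulodexide, nuclear genes lower numbered 2 with DESeq2's size factors and with scaling on genes not encoded by mitochondrial DNA, 4 with DESeq2, and 1 to 5 without 1 library. Nuclear genes higher numbered 18 with library totals alone and with log2(FPKM + 0.1), 17 with log2(FPKM + 1), 4 with upper-quartile factors and with DESeq2, 1 with only the 2 groups compared, and 0 to 2 without 1 library. The sign turned for Sdhd (0.11 with library totals alone and 0.11 with each FPKM fit), Coq9 (0.0756, 0.0716 and 0.0751 with library totals, log2(FPKM + 1) and log2(FPKM + 0.1)) and Tomm20 (0.0406, 0.0345 and 0.0390). Library totals and FPKM leave out the composition factor that moved the median of all genes; the cause of the other shifts was not tested. Same-numbered libraries had deviations correlated from -0.07 to 0.14, and differently numbered ones from -0.15 to 0.15. With 3 libraries per group this cannot decide whether the numbers mark pairs. With the replicate number as a block, 3 mitochondrially encoded and 1 nuclear gene were higher under sulodexide against vehicle, 12 mitochondrially encoded genes were lower, 4 nuclear genes higher and 19 lower under TAA, and 3 nuclear genes lower under sulodexide against control. Over all named genes and alternatives, 6711 single-gene values kept direction and side of the threshold, 547 fell short of it, 131 newly passed it and 9 turned sign.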
